A study of Rattus norvegicus with 24 samples.

Results

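White blood cells of rats that had inhaled formaldehyde for 28 days were compared with white blood cells of control rats. The comparison takes 6 of the 24 arrays of the series, 3 exposed and 3 control, chosen by the titles of the samples and not by any measured value. All animals were male Fischer rats, about 8 weeks old when the study began, and all had been accustomed to nose-only tubes. The exposed group breathed 2 ppm formaldehyde, vaporised from isotope-labelled paraformaldehyde, for 6 hours a day over 28 days. The control group spent the same time in the tubes with room air. After the last session blood was drawn from the heart into heparin, white blood cells were isolated in cell preparation tubes, and messenger RNA was measured on Affymetrix arrays. The labels do not say whether a replicate is 1 rat or a pool, so p-values reflect the spread among replicate arrays, part of which may be technical. That spread was estimated from the 7 day blood arrays as well as from these 6. The study asked what an inhaled gas does to gene expression at the nose and in the circulation.

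White blood cells prepared from blood are a mixture. Lymphocytes recognise antigen, natural killer (NK) cells kill virus-infected and tumour cells with perforin and granzymes under the control of surface receptors of the Klr, Ncr and Kir families, and monocytes engulf particles and secrete plasma and matrix proteins. Platelets, the cell fragments that form clots, carry RNA from the megakaryocytes that shed them, and cell preparation tubes, which separate cells by density, tend to keep platelets with mononuclear cells and to remove most granulocytes and red cells. In such bulk samples, fewer cells of a type and less RNA per cell cannot be told apart. Levels are given as log2 normalised intensity per array, in the order of replicates 1, 2 and 3, and differences as exposed minus control on the log2 scale with the standard error of limma. The level of 1 gene was not set against that of another, since probes differ in brightness.

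Markers of the labelled cell type were present on all 6 arrays. The T cell gene Cd3e lay between 11.21 and 11.68, the B cell gene Ms4a1 between 9.27 and 9.91 and the NK granule gene Nkg7 between 11.90 and 12.63, against a level of 5.96 that served as the filter on dim probe sets. Markers of platelets and red cells were present as well, with the platelet chemokine gene Ppbp at 11.97 to 12.74 and the globin gene Hbb at 13.33 to 13.56. Of the 6 arrays control replicate 2 stood apart. The mean of the neutrophil list lay 0.86 above the control mean on this array, and 0.37 and 0.49 below it on control replicates 1 and 3. The mean of the immediate early genes lay 0.45 above the control mean on the same array. Exposed replicate 2 had the lowest upper quartile of intensity, 290.69 against up to 333.35 on the other arrays, and its correlation with control replicate 2, r = 0.954, was the lowest of all pairs. The list means by array showed that the NK and platelet lists separated the groups without overlap, higher on exposed arrays. The lists of monocytes, neutrophils and immediate early genes also separated them without overlap, lower on exposed arrays. The T cell, B cell, red cell and heart muscle lists overlapped. Heart muscle was checked because the blood came from a heart puncture, and 0 of its 13 members passed the test in either direction.

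**Figure D1:**
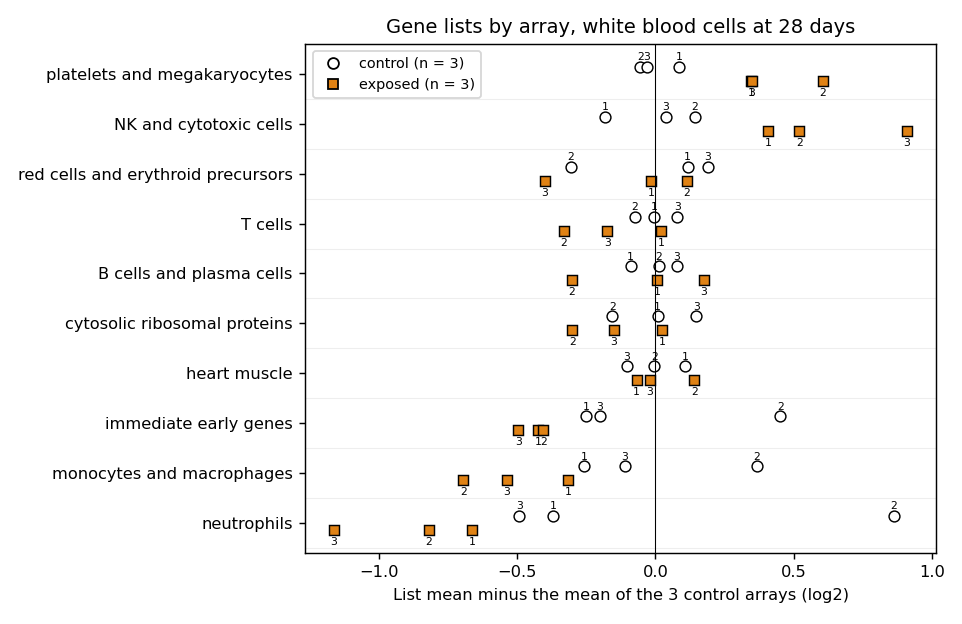
Mean of each gene list on each of the 6 arrays of 28 day white blood cells, as the distance from the mean of the 3 control arrays (x axis, log2), with open circles for control arrays, filled squares for exposed arrays and the replicate number beside each point. On exposed arrays the NK list lies 0.41 to 0.91 and the platelet list 0.35 to 0.60 above the mean of controls, and control replicate 2 lies apart in the lists of neutrophils, immediate early genes and monocytes.

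The exposed cells held higher levels of NK receptor genes, of granzymes and of many platelet genes. They held lower levels of fibronectin and other products of myeloid cells, and of some genes of resting lymphocytes. Among the genes past the threshold, the receptor gene Kir3dl1, a member of the killer cell immunoglobulin-like receptors, had the largest rise, at 1.66 ± 0.23, on a dim probe set with 1 control array under the filter level. Among them the fibronectin gene Fn1, which encodes a matrix and plasma protein that monocytes also make, had the largest fall, at −2.36 ± 0.59. By limma, fitted to the 12 blood arrays of both exposure lengths with Benjamini-Hochberg adjustment, 574 of 11717 genes were higher (4.90%) and 173 were lower (1.48%). Counted by probe set, 866 of 21910 were higher (3.95%) and 288 were lower (1.31%), or 5.27% in all. By size, 332 of the higher and 46 of the lower genes differed by at least 1.5-fold, and 57 and 16 by at least 2-fold. On the 3 exposed arrays all 747 called genes lay wholly above or wholly below the 3 control arrays, and so did 9.38% (above) and 10.5% (below) of all genes tested.

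These counts rest on the spread of the 7 day blood arrays as well. The median SD over probe sets was 0.134 in the control and 0.147 in the exposed group at 28 days, against 0.101 and 0.0804 at 7 days. A fit to the 6 arrays of 28 days alone called 1 probe set, which carried no gene name in the table used here (−1.47, limma adjusted p = 0.0123), and 2788 at an unadjusted p under 0.05, against 3931 in the fit to 12 arrays. The count of 1154 was 623 without control replicate 3 and 623 without exposed replicate 2, and the count of lower probe sets, 288, then fell to 91 and 67. Each of the 6 arrays was left out in turn (leave-one-out): 277 of the 574 higher genes and 13 of the 173 lower genes passed every time.

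**Figure D2:**
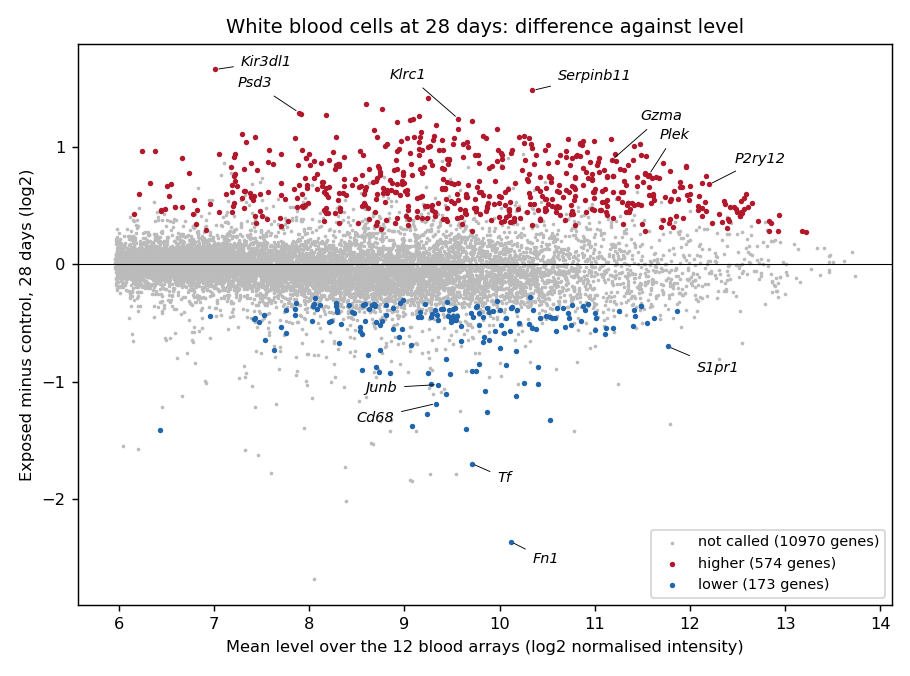
Difference between exposed and control white blood cells at 28 days (y axis, log2) against the mean level over the 12 blood arrays (x axis, log2 normalised intensity), 1 point per gene, with genes past the limma threshold in red (higher) and blue (lower). The 574 higher genes spread over all levels with rises up to 1.66, while the 173 lower genes are fewer and reach −2.36 at Fn1.

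Exposed replicate 2 was the array at the extreme for most called genes. It had the highest level of the 6 arrays in 480 of the 574 higher genes (83.6%) and in 24.02% of all genes tested, and the lowest level in 122 of the 173 lower genes (70.5%) and in 32.9% of all genes tested. Exposed replicate 3 was the highest in 90 of the higher genes (15.7%). The heat map of the largest changes shows both kinds. Serpinb11, Prr16, Csgalnact1, Psd3 and Trpc6 were highest on exposed replicate 2, as was the platelet list, whereas Kir3dl1, Cacnb4, Klrc1 and Klri1 were highest on exposed replicate 3, as was the NK list.

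**Figure D3:**
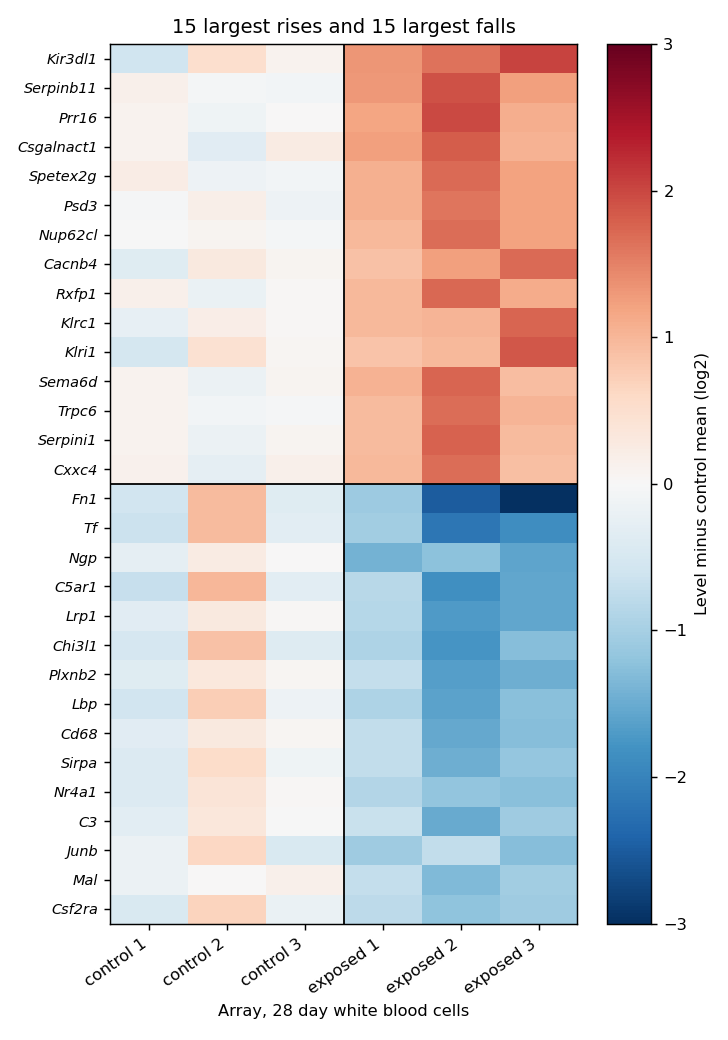
Level on each of the 6 arrays minus the mean of the 3 control arrays (colour, log2) for the 15 largest rises and the 15 largest falls past the threshold in white blood cells at 28 days. Every exposed array lies above the controls in the rises and below them in the falls, and for Fn1, Tf and C5ar1 control replicate 2 lies above the other controls.

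Most measured NK receptors of the lectin-like Klr family rose. Klrc1, which encodes the inhibitory receptor NKG2A, stood at 8.40, 8.87 and 8.70 on the control arrays and at 9.62, 9.67 and 10.40 on the exposed arrays. The groups did not overlap, and the rise was 1.24 ± 0.19 (2.37-fold, limma adjusted p = 0.00459). Klrg1, an inhibitory receptor of mature NK and effector T cells, stood at 8.06, 8.25 and 8.17 in controls and at 8.85, 9.19 and 9.40 in exposed cells, a rise of 0.99 ± 0.14 (adjusted p = 0.00431). All 3 exposed arrays were again above all 3 controls, with exposed replicate 3 the highest in both genes. The related genes Klrc3, Klrc2, Klri1, Klri2, Klre1 and Klrb1a rose by 0.82 to 1.24, the least in Klrb1a and the most in Klri1. In the order of the GRCr8 assembly Klrc3, Klrc2, Klrc1, Klri1 and Klri2 are consecutive among the genes tested, so they form a run of 5 neighbours. Members of this family are near-identical copies in places, and how the arrays divide signal among them is uncertain. The call of Klri1 ended without control replicate 1 (0.97), control replicate 3 (1.27) or exposed replicate 3 (0.92), as did that of Klri2, and the call of Klrc2 ended without control replicate 1 or control replicate 3. Klrk1 (0.00, the activating receptor NKG2D), Klrd1 (0.53, the partner of NKG2A) and Klrb1b (−0.11) did not pass.

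Messenger RNAs of several granule proteins that kill target cells rose as well. Gzmb, a granule protease that triggers death of the target cell, stood at 10.56, 10.94 and 10.65 in controls and at 11.26, 11.57 and 11.74 in exposed cells, a rise of 0.81 ± 0.13 (limma adjusted p = 0.00617). Gzma rose by 0.89 ± 0.16 and Gzmk by 0.91 ± 0.15, and Prf1, the pore protein perforin, by 0.52 ± 0.10. The groups did not overlap in any of these 4 genes. Faslg, the ligand of the death receptor Fas, rose by 0.79 ± 0.18, Tbx21, a master factor of NK and type 1 T cells, by 0.63 ± 0.16, Ncr1, the activating receptor NKp46, by 0.89 ± 0.23 and Nkg7 by 0.44 ± 0.11. The calls of Faslg, Tbx21, Ncr1 and Nkg7 each ended without control replicate 1, control replicate 3, exposed replicate 2 or exposed replicate 3, and that of Nkg7 without control replicate 2 as well.

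The list of NK and cytotoxic cells named 31 genes, of which 30 were on the array and 29 passed the filter. Of the 29, 18 rose, 0 fell and 11 did not pass, beside 4.90% higher and 1.48% lower among all genes tested. The median difference was 0.63, against −0.03 over all genes tested. The count of rises was 9 without control replicate 1, and 10 without control replicate 3 or without exposed replicate 3. Granzymes, perforin, Faslg and Tbx21 are also made by cytotoxic T cells. Of 22 T cell genes 0 rose and 2 fell, and Cd3e (−0.12), Cd8a (−0.15) and Cd4 (−0.36) did not pass. Which cells the rises came from cannot be told from bulk samples and was not tested. A list of NK activation and cytokine receptor genes, written after values had been seen and holding genes picked for their change, had 12 of 26 higher and 0 lower. Leaving out control replicate 1 gave 5, control replicate 3 gave 6 and exposed replicate 3 gave 7 higher members, and 1 member was lower without exposed replicate 1. Among the 12 were Il12rb2, a subunit of the receptor for interleukin 12, at 1.15 ± 0.16 and Serpinb9, which shields killer cells from their own granzyme B, at 0.74 ± 0.10. Kir3dl1 stood at 5.40, 6.50 and 6.12 in controls and at 7.32, 7.65 and 8.03 in exposed cells. Its lowest control value lay under the filter level, so the size of its rise is uncertain.

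Platelet genes also rose. The genes chosen to show their promoters are those of the platelet list whose start site region held AGATAA, the letters bound by GATA factors, of which GATA1 is a factor of megakaryocytes and red cell precursors. The letters, on either strand, were found in 3 of the 8 platelet list promoters in the table (37.5%), in 6.99% of 9679 promoters of genes tested and in 11.3% of all 27457 promoters. In the longer platelet list described further on the letters were in 5 of 51 promoters (9.8%), and in the NK list in 4 of 23 (17.4%). Among 464 promoters of higher genes the share was 9.27%, and among 143 of lower genes 4.2%. The 3 sequences are those of Gp1ba and Gp5, subunits of the platelet receptor for von Willebrand factor, and Rgs18, a brake on G protein signals in platelets. Each is from RefSeq on GRCr8, runs from 250 bases before to 50 bases after the start of the gene in the direction of transcription, and has the match in capitals, as AGATAA or its reverse complement TTATCT.
Gp1ba, chr10:55851309-55851608, plus strand: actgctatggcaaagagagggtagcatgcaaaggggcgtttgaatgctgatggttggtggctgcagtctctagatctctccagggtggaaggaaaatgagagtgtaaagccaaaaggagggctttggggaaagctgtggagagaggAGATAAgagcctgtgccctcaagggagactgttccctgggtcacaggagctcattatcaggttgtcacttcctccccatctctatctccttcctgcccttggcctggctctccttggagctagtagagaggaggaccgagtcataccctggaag
Gp5, chr11:83948257-83948556, plus strand: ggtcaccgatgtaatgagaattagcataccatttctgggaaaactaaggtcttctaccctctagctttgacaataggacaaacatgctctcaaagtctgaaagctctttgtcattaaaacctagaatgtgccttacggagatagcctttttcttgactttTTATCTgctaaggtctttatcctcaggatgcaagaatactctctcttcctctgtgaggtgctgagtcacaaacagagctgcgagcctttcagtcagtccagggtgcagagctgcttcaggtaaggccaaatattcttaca
Rgs18, chr13:59066293-59066592, minus strand: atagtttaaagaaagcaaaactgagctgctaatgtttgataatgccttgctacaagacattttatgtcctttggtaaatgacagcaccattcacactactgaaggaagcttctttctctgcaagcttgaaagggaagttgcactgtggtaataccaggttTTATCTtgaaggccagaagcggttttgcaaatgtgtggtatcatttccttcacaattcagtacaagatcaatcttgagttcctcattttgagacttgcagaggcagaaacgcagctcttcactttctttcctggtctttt

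Of these genes Gp1ba stood at 12.35, 12.43 and 12.33 in controls and at 12.64, 12.79 and 12.74 in exposed cells, a rise of 0.36 ± 0.08 (limma adjusted p = 0.0187). Rgs18 rose by 0.43 ± 0.10, and its call and that of Gp1ba ended without control replicate 3, exposed replicate 2 or exposed replicate 3, with control replicate 1 as well for Gp1ba and control replicate 2 for Rgs18. Gp5 had a difference of 0.46 ± 0.12 that did not pass (adjusted p = 0.0533). The exposed arrays lay above the control arrays in all 3 genes.

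Messenger RNAs of several platelet receptors, signalling proteins and granule proteins rose. Plek, a substrate of protein kinase C in platelets, stood at 10.99, 10.85 and 10.92 in controls and at 11.53, 11.86 and 11.66 in exposed cells, a rise of 0.76 ± 0.10 (1.70-fold, limma adjusted p = 0.00404). P2ry12, the ADP receptor that anti-clotting drugs block, stood at 11.75, 11.41 and 11.55 in controls and at 12.07, 12.47 and 12.20 in exposed cells, a rise of 0.68 ± 0.11 (adjusted p = 0.00574). In both genes the exposed arrays lay above every control array, with exposed replicate 2 the highest. F13a1, which cross-links fibrin, rose by 0.54 ± 0.10, Ppbp by 0.49 ± 0.09, Thbs1, the granule protein thrombospondin, by 0.53 ± 0.11, Nrgn, a calmodulin-binding protein, by 0.41 ± 0.09 and Gp9, a partner of Gp1ba, by 0.45 ± 0.12. The call of Gp9 ended without any 1 of the 6 arrays (0.32 to 0.51), and those of Thbs1 and Nrgn ended without control replicate 2 or exposed replicate 2, and for Nrgn without control replicate 3. Itgb3, an integrin subunit that binds fibrinogen, at 0.33 and the chemokine gene Pf4 at 0.36 did not pass.

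The platelet list named 22 genes, of which 13 were matched on the array and passed the filter. Of the 13, 9 rose, against 4.90% of all genes tested, 0 fell and 4 did not pass. The median difference was 0.45, against −0.03 over all genes tested. Leaving out exposed replicate 2 gave a count of 4, and leaving out control replicate 2 or 3 gave 5. Selp (−0.18), an adhesion protein that endothelium makes as well, was the member with a difference below 0. A longer list of platelet receptors, signalling and granule genes, written after values had been seen and holding genes picked for their change, had 43 of 61 higher and 0 lower, and 27 higher without control replicate 2, 30 without exposed replicate 2 and 31 without control replicate 3. It included Angpt1, the vessel growth factor angiopoietin 1, at 1.07 ± 0.12, Itga2, a collagen receptor subunit, at 1.09 ± 0.14, the tetraspanin Cd9 at 0.76 ± 0.14 and the serotonin carriers Slc18a2 at 1.01 ± 0.16 and Slc6a4 at 0.74 ± 0.18. Ptgs1, the cyclooxygenase of platelets, rose by 0.66 ± 0.10 and Alox12, their lipoxygenase, by 0.71 ± 0.15. The calls of Slc6a4 and Alox12 ended without exposed replicate 2, and that of Slc6a4 without control replicate 2 or control replicate 3. The other members of the list of prostaglandin, thromboxane and leukotriene enzymes did not pass, so 2 of 21 rose and 0 fell.

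Several of the largest rises belonged to none of the 32 lists first written, though Trpc6 and Csgalnact1 are in those written from the values. Serpinb11, a member of the serpin family of protease inhibitors, stood at 9.39, 9.18 and 9.17 in controls and at 10.55, 11.17 and 10.48 in exposed cells, a rise of 1.48 ± 0.18 (limma adjusted p = 0.00404). It is followed in the GRCr8 order by Serpinb2 and Serpinb10, which rose by 1.11 and 0.86, the latter call ending without control replicate 1 or control replicate 3. Serpini1, the serpin known as neuroserpin, rose by 1.22 ± 0.19. Csgalnact1, an enzyme of chondroitin sulfate synthesis, rose by 1.37 ± 0.19, Psd3, an exchange factor for Arf GTPases, by 1.29 ± 0.14, Trpc6, a calcium-permeable channel, by 1.22 ± 0.16, the channel subunit gene Cacnb4 by 1.27 ± 0.19 and the relaxin receptor gene Rxfp1 by 1.26 ± 0.18. Sema6d, a membrane semaphorin, rose by 1.23 ± 0.18. Prr16, Spetex2g, Nup62cl and Cxxc4 completed the 15 largest with rises of 1.42, 1.32, 1.28 and 1.18. Each of the 15 except Klri1 passed in all 6 leave-one-out fits. Rhag, a red cell membrane protein, rose by 1.03 ± 0.13, while the other 19 members of the red cell list did not pass (median −0.11), and on the arrays Rhag was highest on exposed replicate 2.

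Genes of monocytes and other myeloid cells were among the largest falls. Fn1 stood at 10.35, 11.89 and 10.56 in controls and at 9.84, 8.44 and 7.43 in exposed cells, a difference of −2.36 ± 0.59 (5.14-fold lower, limma adjusted p = 0.0402). The groups did not overlap, but control replicate 2 was well above the other controls, and the call held without exposed replicate 1 and ended without any other array, with a difference of −1.88 without control replicate 2 and −1.79 without exposed replicate 3. Tf, which encodes the iron carrier transferrin, stood at 9.24, 10.84 and 9.56 in controls and at 8.83, 7.70 and 8.02 in exposed cells and fell by 1.70 ± 0.37. Its call ended without exposed replicate 2 (−1.46) or exposed replicate 3 (−1.62). Cd68, a lysosomal protein of macrophages, stood at 8.79, 9.42 and 9.18 in controls and at 8.39, 7.59 and 7.86 in exposed cells and fell by 1.19 ± 0.27. Its exposed arrays lay below all controls, and its call ended without control replicate 2 (−1.04), control replicate 3 (−1.16), exposed replicate 2 (−1.01) or exposed replicate 3 (−1.14).

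The other large falls included receptors and secreted proteins of innate immunity. C5ar1, the receptor for complement fragment C5a, fell by 1.41 ± 0.37, Lrp1, a receptor that clears protease complexes, by 1.37 ± 0.29, the chitinase-like gene Chi3l1 by 1.33 ± 0.32, the semaphorin receptor gene Plxnb2 by 1.28 ± 0.30 and Lbp, which hands bacterial lipopolysaccharide to its receptor, by 1.26 ± 0.28. Sirpa, the receptor for the "do not eat me" signal CD47, fell by 1.12 ± 0.25, complement C3 by 1.08 ± 0.26 and Csf2ra, a subunit of the receptor for the growth factor GM-CSF, by 1.02 ± 0.27. In each of these 8 genes the exposed arrays lay below all 3 controls. Each of the 8 calls ended without exposed replicate 2 or exposed replicate 3, and all but that of Lbp without control replicate 2, all but that of Chi3l1 without control replicate 3. Over the leave-one-out fits their differences ran from −1.76 for C5ar1 to −0.68 for Csf2ra. Platelet genes rose on the same arrays, and with the mean of the platelet list as a covariate the sign of Tf, C5ar1, Lrp1, Chi3l1, Plxnb2, Lbp, Cd68, Sirpa, C3 and Csf2ra turned (0.02 for Lrp1 to 0.41 for C3). Of all 747 called genes 253 turned sign with that covariate, and the cause was not tested.

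**Figure D4:**
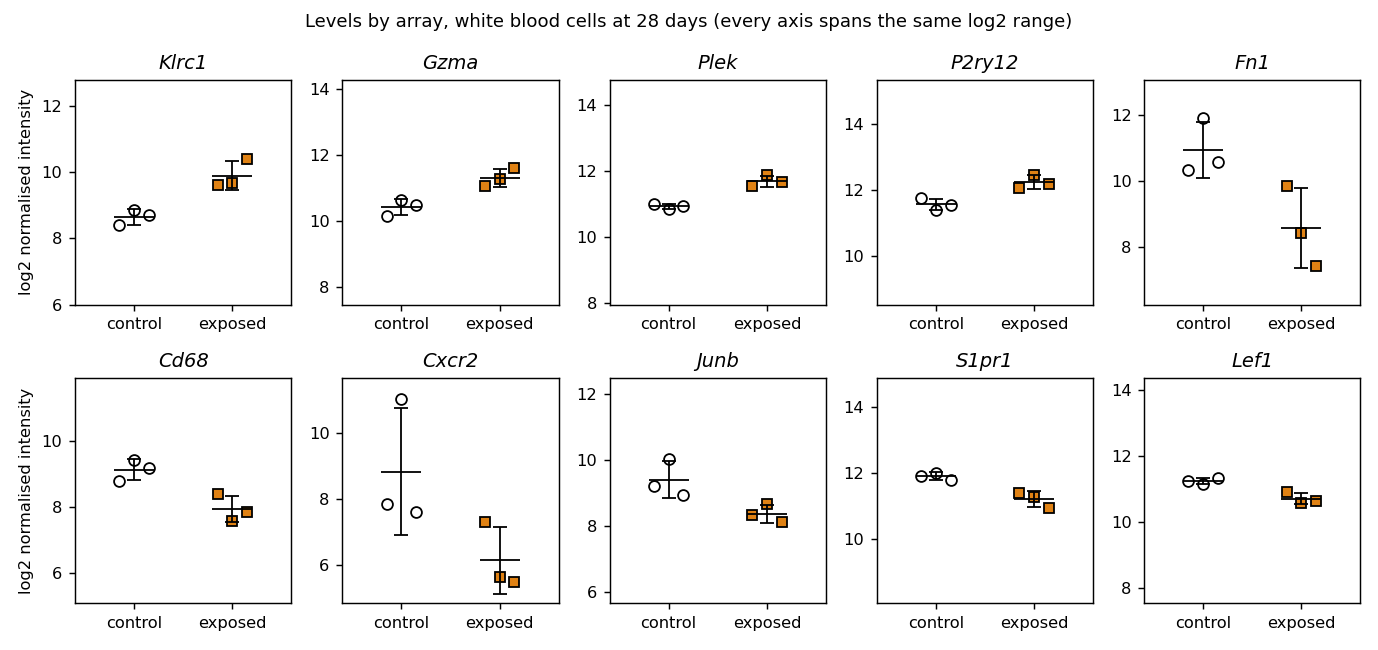
Levels on the 3 control (open circles) and 3 exposed arrays (filled squares) of 28 day white blood cells for 10 genes (y axis, log2 normalised intensity), with the bar at the group mean and whiskers of 1 SD. The exposed arrays lie above the controls for Klrc1, Gzma, Plek and P2ry12 and below them for Fn1, Cd68, Cxcr2, Junb, S1pr1 and Lef1, and Cxcr2 shows control replicate 2 far above the rest.

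Most listed monocyte markers did not pass. Of 21 members of the list of monocytes and macrophages Fn1 and Cd68 fell, 0 rose and 19 did not pass, with a median of −0.33. Over all genes tested 1.48% fell, and the median was −0.03. Csf1r, the receptor for the monocyte growth factor, at −0.71 (adjusted p = 0.0648) and Cd14 at −0.91 (0.187) did not pass in limma, and the chemokine receptors Ccr2 (−0.12) and Cx3cr1 (0.03), which mark monocyte subsets, lay near 0 with overlapping groups. A list of myeloid factors, complement and pattern receptors, written after values had been seen and holding genes picked for their change, had 20 of 38 lower and 0 higher. The myeloid factor Spi1 (PU.1) was among them at −0.92 ± 0.25, the growth factor precursor Grn at −0.88 ± 0.18, the complement protein properdin (Cfp) at −1.01 ± 0.26 and the DNA sensor Tlr9 at −0.69 ± 0.18. Of that list 1 member was lower without exposed replicate 2, 3 without exposed replicate 3 and 6 without control replicate 2 or control replicate 3.

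Neutrophil genes were uneven among the controls. Cxcr2, the chemokine receptor of neutrophils, stood at 7.83, 11.03 and 7.60 in controls and at 7.30, 5.65 and 5.47 in exposed cells. Control replicate 2 was far above the other controls, and the difference, −2.68 ± 0.93, did not pass (limma adjusted p = 0.136). S100a9, an alarm protein of neutrophil cytosol, showed the same array at the top, at 8.88, 11.57 and 8.57 in controls and 8.41, 8.13 and 6.95 in exposed cells (−1.85 ± 0.77, not past the threshold). Ngp, a protein of neutrophil granules, stood at 6.07, 6.59 and 6.35 in controls and at 4.92, 5.10 and 4.75 in exposed cells and fell by 1.41 ± 0.31 (adjusted p = 0.0233). Its exposed values lay under the filter level, so the size is uncertain, and its call ended without control replicate 2, control replicate 3, exposed replicate 2 or exposed replicate 3 (−1.50 to −1.29). Of 20 neutrophil genes Ngp was the 1 that fell, beside 1.48% of all genes tested, and 0 rose. In 10 of the 20 the exposed arrays lay below all control arrays, a larger share than the 10.5% of all genes tested. The granule genes of neutrophil precursors Mpo (0.04), Elane (−0.04) and Prtn3 (0.04) had overlapping groups.

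Some genes of resting and recirculating lymphocytes fell by modest amounts. Lef1, a factor of naive T cells, stood at 11.24, 11.14 and 11.33 in controls and at 10.91, 10.58 and 10.64 in exposed cells and fell by 0.52 ± 0.12 (limma adjusted p = 0.0228), and its partner Tcf7 fell by 0.46 ± 0.12. These were the 2 of 22 T cell genes that fell, beside 1.48% of all genes tested. Their calls ended without control replicate 1, control replicate 3, exposed replicate 2 or exposed replicate 3, and for Tcf7 without control replicate 2. Over all leave-one-out fits the 2 differences ran from −0.62 to −0.39. Ccr7, the receptor that leads naive T cells into lymph nodes, at −0.38 did not pass (adjusted p = 0.0913). The list of lymphocyte homing and quiescence, written after values had been seen and holding genes picked for their change, had 19 of 29 lower and 0 higher. In it S1pr1, the receptor by which lymphocytes leave lymph nodes, stood at 11.92, 12.01 and 11.78 in controls and at 11.40, 11.28 and 10.93 in exposed cells and fell by 0.70 ± 0.12. Klf2, the factor that drives S1pr1, fell by 0.62 ± 0.12, Foxo1, which keeps lymphocytes quiescent, by 0.57 ± 0.12, Il6r by 0.74 ± 0.14, Il4r by 0.54 ± 0.09, Notch1 by 0.46 ± 0.09 and the gut homing integrin Itgb7 by 0.66 ± 0.14. S1pr1, Il6r, Il4r and Notch1 passed in all 6 leave-one-out fits. The call of Klf2 ended without control replicate 3, that of Foxo1 without exposed replicate 2, and that of Itgb7 without control replicate 2, control replicate 3, exposed replicate 2 or exposed replicate 3. Leaving out exposed replicate 2 gave 5 lower genes in the list, exposed replicate 3 gave 7, and control replicates 1, 2 and 3 gave 9, 8 and 6.

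Of the B cell list only Cr2, the complement receptor of mature B cells, passed, with a rise of 0.47 ± 0.12 whose call held without exposed replicate 1 and ended without any other array (0.38 to 0.55). Ms4a1 (−0.14), the gene of the antigen CD20, Cd79b (−0.35) and Jchain (0.88), the joining chain of secreted antibodies, did not pass. In the dendritic cell list Clec9a, a receptor for dead cells, rose by 0.66 ± 0.12, from 5.98, 6.07 and 5.67 to 6.53, 6.71 and 6.48, and it passed in all 6 leave-one-out fits although its control levels lay near the filter. The 15 genes of MHC class II presentation had a median of −0.32 and 14 differences below 0, and 0 passed the test. RT1-DMa, which loads peptides, was nearest at −0.83 ± 0.22 (limma adjusted p = 0.0523).

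Immediate early genes, which cells switch on within minutes of a stimulus or of handling, gave 5 falls. Junb, a subunit of the factor AP-1, stood at 9.21, 10.02 and 8.94 in controls and at 8.32, 8.66 and 8.11 in exposed cells and fell by 1.03 ± 0.23 (limma adjusted p = 0.024). The call of Junb ended without exposed replicate 1 or exposed replicate 3 (−0.90). Nr4a1, an orphan nuclear receptor, fell by 1.10 ± 0.26, Klf4 by 0.87 ± 0.23, Klf2 by 0.62 and Ier5 by 0.49 ± 0.09. Of 26 members these 5 fell and 0 rose, beside 1.48% lower and 4.90% higher among all genes tested. The median of the list was −0.34, against −0.03 over all genes tested. Control replicate 2 carried the highest level of the well-known members Fos (7.86, 10.18 and 8.10 in controls) and Egr1 (8.56, 10.66 and 8.42), which did not pass (adjusted p = 0.264 and 0.619). The count was 2 without control replicate 3 or exposed replicate 3 and 3 without control replicate 2, exposed replicate 1 or exposed replicate 2, and Ier5 passed each time while Klf4 did not pass in any of these fits. Neutrophil genes were high on the same control array. With the mean of the neutrophil list as a covariate, an alternative added after seeing the data, 0 of the 26 immediate early genes passed and their median was −0.03. That covariate left 9 of all 747 called genes called, so the 0 is not particular to this list.

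Of 14 clock genes Per1 and Cry2, repressors of the daily oscillator, fell by 0.55 ± 0.14 and 0.33 ± 0.09, beside 1.48% lower among all genes tested. The calls of Per1 and Cry2 ended without control replicate 2, exposed replicate 2 or exposed replicate 3. That of Per1 also ended without exposed replicate 1, and that of Cry2 without control replicate 1 or control replicate 3. The hour of sampling is not in the labels. Per1 is also a target of glucocorticoids, and it was the 1 called member of the 19 in that list, with Dusp1 at −1.42 and Ddit4 at −0.41 not past the threshold.

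Lists of metabolic and redox genes differed in their share of calls, beside 4.90% higher and 1.48% lower among all genes tested. Rises were a larger share than 4.90% of the redox list and of the hypoxia and glycolysis list. They were a smaller share of the oxidative phosphorylation list. Among 25 targets of NRF2, the factor of the oxidant response, Me1, an enzyme that yields NADPH, rose by 0.91 ± 0.15, Prdx6, a peroxidase, by 0.70 ± 0.15, the glutathione transferase gene Gstp1 by 0.66 ± 0.14 and Gsr, which regenerates glutathione, by 0.64 ± 0.13, while 21 did not pass and the median was −0.04. The count was 2 without control replicate 2, which ended the calls of Prdx6 and Gstp1, and the call of Gstp1 also ended without exposed replicate 2 and that of Gsr without control replicate 3. With the mean of the platelet list as a covariate the sign of these 4 differences turned (−0.15 to −0.04). That covariate turned the sign of 253 of all 747 called genes. In the list of hypoxia and glycolysis 6 of 26 rose and 2 fell. Bnip3, a mitochondrial protein of hypoxic cells, rose by 1.03 ± 0.23, P4ha1, a collagen hydroxylase subunit, by 0.89 ± 0.15, the oxygen sensor Egln3 by 0.87 ± 0.21, and the glycolytic genes Aldoc, Pgk1 and Pkm by 0.85, 0.46 and 0.41, while Hk2 and Pfkfb4, enzymes of glucose phosphorylation and fructose bisphosphate control, fell by 0.46 and 0.73. The count of rises was 1 without control replicate 3 or exposed replicate 2, 2 without control replicate 2, and 6 without exposed replicate 3. The count of falls was 0 without control replicate 2, control replicate 3, exposed replicate 2 or exposed replicate 3. Of 54 subunits of oxidative phosphorylation only Ndufa4 and Ndufs4 rose, by 0.62 ± 0.09 and 0.52 ± 0.10, a share below that of all genes tested. The median was 0.02. All 4 redox genes and both subunits were highest on exposed replicate 2, as were 83.6% of the 574 higher genes. That array also had the highest platelet list mean, and the cause was not tested.

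Genes that handle formaldehyde or answer to DNA damage did not pass. The 20 genes of aldehyde and formaldehyde metabolism had a median of −0.05 and differences from −0.58 to 0.30. Aldh2, the mitochondrial aldehyde dehydrogenase, was nearest, at 9.47, 9.27 and 9.67 in controls and 9.24, 8.83 and 8.61 in exposed cells (−0.58 ± 0.16, limma adjusted p = 0.0595). The exposed arrays lay below all controls, as in 10.5% of all genes tested. Esd, which completes the glutathione route of formaldehyde oxidation, was at 0.02 ± 0.13, catalase (Cat) at −0.12 ± 0.11 and Aldh3a1 at −0.01 ± 0.08. Among 24 genes of DNA crosslink, excision and base repair the differences ran from −0.27 to 0.31, and among 17 targets of p53 from −0.64 to 0.24. The 25 proliferation genes lay between −0.20 and 0.28, and the 56 cytosolic ribosomal protein genes between −0.40 and 0.11 with a median of −0.12.

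Lists of inflammation and interferon held 0 to 2 calls each, beside 4.90% higher and 1.48% lower among all genes tested. Of 25 inflammatory cytokines and chemokines 0 passed, with Il1rn, the interleukin 1 receptor antagonist, at −1.11 ± 0.34 and control replicate 2 again the highest array (8.36, 9.92 and 8.74 in controls). In the type I interferon list Bst2, which tethers budding virus, was the 1 of 31 that fell (−0.44 ± 0.10) and 0 rose. Of 17 interferon-gamma genes Gbp2, a GTPase of cell defence, rose by 0.48 ± 0.11 and Cxcl10, a chemokine that draws activated T and NK cells, by 0.76 ± 0.19. Both calls ended without control replicate 1, control replicate 3 or exposed replicate 2, and that of Cxcl10 without exposed replicate 3 as well. The call of Bst2 ended without control replicate 2, control replicate 3, exposed replicate 2 or exposed replicate 3. Of 19 heat shock chaperones Hspd1 rose by 0.43 ± 0.11, and its call ended without control replicate 1, control replicate 3, exposed replicate 2 or exposed replicate 3 (0.32 to 0.51 over all leave-one-out fits). Of 27 reported targets of the let-7 microRNA family Nras and Thbs1 rose and 0 fell, near the 4.90% of all genes. Kdr was the 1 called member of the endothelial list (0.64 ± 0.11), Thy1 of the fibroblast list (0.48 ± 0.11, a call that ended without control replicate 3), and 0 passed in the lists of epithelium, of eosinophils, basophils and mast cells, and of the unfolded protein response.

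The 7 day blood arrays, with their own controls, gave the same contrast after a shorter exposure. Of the 574 genes higher at 28 days 417 had a 7 day difference above 0, and of the 173 lower genes 156 had one below 0. The median 7 day difference was 0.10 for the higher and −0.22 for the lower genes, against 0.04 over all genes tested. Across all genes tested the differences of the 2 times had r = 0.328 and rho = 0.303, a description in which genes are not independent. At 7 days 58 genes passed (0.111% of genes in the higher and 0.384% in the lower direction), and 23 of them were among the 28 day calls, all in the same direction, or 39.7% of the 7 day and 3.08% of the 28 day genes. The arrays of the 2 times lay on different scales, with array medians of 7.45 to 7.50 at 7 days and 6.82 to 6.90 at 28 days.

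The lists differed in how their 2 medians compared. The medians of the NK list were 0.52 at 7 days and 0.63 at 28 days, with 4 members called at 7 days, which were Klrg1 (0.95), Gzmk (0.97), Gzma (0.91) and Gzmb (0.70). The medians of the platelet list were −0.01 and 0.45, with Plek at 0.17 and P2ry12 at 0.20 at 7 days. Of the myeloid genes Lrp1 (−1.14) and Fn1 (−1.92) had 7 day differences below −1, and Cd68 (−0.05), C5ar1 (−0.04) and C3 (−0.03) lay near 0, with none of the 5 called at 7 days. The difference between the 2 times was tested as an interaction in limma and 0 of 21910 probe sets passed, with 2528 at an unadjusted p under 0.05 and a smallest adjusted p = 0.0605. None of these genes is therefore shown to respond at 28 days only. A fit to all 24 arrays called 145.

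**Figure D5:**
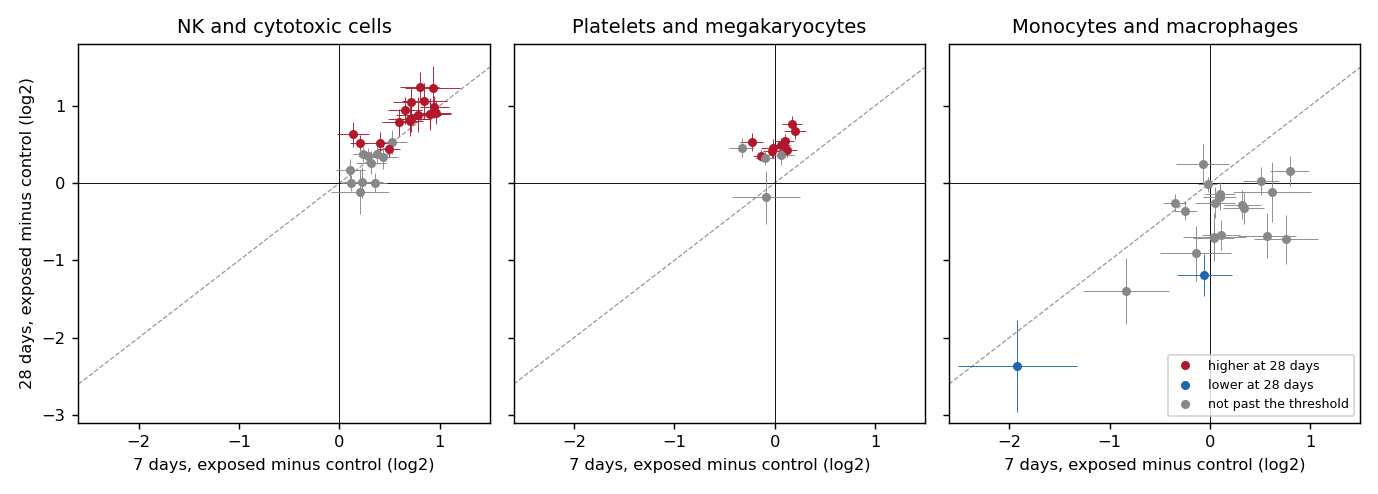
Difference between exposed and control white blood cells at 28 days (y axis, log2) against that at 7 days (x axis, log2) for members of 3 lists, with whiskers of 1 standard error and a dashed line of equality. The median of the NK genes lies above 0 at both times (0.52 at 7 days and 0.63 at 28 days). The median of the platelet genes lies near 0 at 7 days and above 0 at 28 days. At 28 days 1 NK gene and 1 platelet gene lie below 0. Monocyte genes scatter with Fn1 at the lower left.

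Nasal epithelial cells of the same exposure length, measured on 6 other arrays, was compared by the difference of the effects. Of 20096 probe sets 1025 differed between blood and nose (5.10%, limma on 24 arrays), 624 with a higher and 401 with a lower effect in blood. Of the called blood genes that could be tested in both tissues, 306 of 533 higher genes and 78 of 171 lower genes passed this test in the same direction, against 4.01% (higher) and 2.20% (lower) of all genes tested. The test shares the blood arrays that chose these genes, so these counts are a description. The median nasal difference was −0.04 for the genes higher in blood and 0.09 for those lower. Serpinb10 had the largest difference among the named genes, with 0.86 in blood and −1.90 in nose, and Kdelr3, a receptor that returns proteins to the endoplasmic reticulum, had 1.04 and −0.91, its call in blood ending without control replicate 2 or control replicate 3. Fn1 had −2.36 in blood and 0.08 in nose, and Plek 0.76 and −0.34. The labels do not say whether nose and blood replicates with the same number came from the same rat.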

How the data were processed

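The authors deposited 1 normalised intensity per probe set and array on a linear scale, 29214 probe sets on 24 arrays. The submitters' processing notes name Partek, and the sources used here do not give its version, background correction or normalization, which set the spread and the size of every difference. The intensities were put on the log2 scale here, and probe sets with a mean over the blood arrays under percentile 25 (5.96) were left out. The model was limma 3.58.1 (R 4.3.3) on 12 blood arrays with 4 group means, which share 1 estimate of the spread. Tests were two-sided, with p-values adjusted by Benjamini-Hochberg over 21910 probe sets and a threshold of 0.05. The difference between tissues was fitted on 24 arrays. A gene was represented by 1 probe set, so 11717 genes were counted. The platform's gene table gave 1 symbol to 15310 probe sets and several to 323, and 13581 are absent from it. The fit was run on simulated data with independent noise of equal spread in the 4 groups. The real groups differ in spread, so the simulation does not test the effect of sharing it. Residuals of same-numbered control and exposed arrays had r of −0.35, −0.22 and 0.07. These values gave no sign of pairing by replicate number, but 3 arrays per group cannot exclude it. Named genes were the 15 largest rises and the 15 largest falls past the threshold, up to 4 members of the smallest p in each list, 5 enzymes of aldehyde removal and the 3 largest tissue differences each way (the rule gave none between 28 and 7 days). Other named genes are list members picked with their values in view. The members of the comparison and the 32 gene lists were chosen with earlier results of these data known, and 4 further lists were written from the values. Of the 5 enzymes Aldh1a1 did not pass the filter. Promoters came from RefSeq (GRCr8), figures from matplotlib 3.10.9. Alternatives were other filters, normalizations, thresholds, fits and covariates, and leaving out each array.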

Additional observations from a re-analysis of the deposited data

Results flagged for a closer look

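The effect of exposure at 28 days differed between blood and nose in 1025 of 20096 probe sets (limma interaction on 24 arrays, adjusted p under 0.05). Among the genes with the largest rises in blood, the effect in blood minus that in nose was 2.11 for Serpinb11, 1.73 for Prr16, 1.45 for Csgalnact1, 1.72 for Spetex2g and 1.49 for Psd3. It was 1.11 for Cacnb4, 1.21 for Sema6d, 1.34 for Trpc6, 1.77 for Serpini1 and 1.39 for Cxxc4. Among the genes with the largest falls it was −2.45 for Fn1, −1.81 for Tf, −1.41 for Lrp1, −1.56 for Plxnb2, −1.12 for Lbp and −1.24 for Sirpa. Serpinb10 and Kdelr3 had 2.75 and 1.95. With 3 arrays per group, single outlying arrays were not tested by a formal rule.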

How the results depend on the processing

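The 3 arrays per group, the share of the spread that comes from the 7 day arrays and the uneven control replicate 2 limit what the 1154 calls (866 higher, 288 lower) can carry. Without 1 array the calls numbered 623 to 1258 (532 to 884 higher, 67 to 374 lower). On the 6 arrays of 28 days alone 1 was called, 0 higher and 1 lower. With the replicate block 392 were called (345 and 47). Whether arrays of the same number form pairs is not known, so the block fit is given as an alternative only. With array quality weights 533 were called (488 and 45). Covariates that share the pattern of the groups left 197 (186 and 11) for the platelet list mean, 21 (15 and 6) for the neutrophil list mean and 0 for the NK list mean, where 3646 had an unadjusted p under 0.05. The neutrophil and NK covariates were added after seeing the data. With the red cell list mean 542 were lower. The lower calls were 183 with no filter and 177 with each array centred on its median. At an adjusted p under 0.1 there were 1733 (596 lower), and at an unadjusted p under 0.005 with 1.5-fold 649 (522 and 127).

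The difference between 28 and 7 days, 0 calls, became 145 on all 24 arrays, 397 at an unadjusted p under 0.005 with 1.5-fold, and 1 with the filter at the median, with median centring, with a trended robust fit or at an adjusted p under 0.1. Without 1 array it was 0 to 5. The difference between blood and nose, 1025, was 544 with the replicate block, 1910 at an adjusted p under 0.1 and 627 to 1152 without 1 array.

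Of the called genes that were refitted under every setting, signs turned with the platelet or NK covariate and with no other setting. With the platelet list mean the differences were −0.016 for Serpini1, −0.011 for Cxxc4, 0.030 for Tf, 0.29 for C5ar1, 0.019 for Lrp1, 0.17 for Chi3l1, 0.24 for Plxnb2, 0.13 for Lbp, 0.19 for Cd68, 0.19 for Sirpa, 0.41 for C3 and 0.080 for Csf2ra. They were −0.078 for Alox12, −0.044 for Me1, −0.077 for Gsr, −0.15 for Prdx6, −0.091 for Gstp1, −0.29 for Aldoc, −0.026 for Thbs1, −0.065 for Thy1 and −0.38 for Kdelr3. Of the 747 called genes 253 turned and 4 stayed called. With the NK list mean the called genes Klri1 and Hspd1 were at −0.12 and −0.012. Of named genes that were not called, Csf1r, Il1rn, RT1-DMa and Cd4 turned to 0.43, 0.41, 0.23 and 0.18 with the platelet list mean and Jchain to −0.15 with the NK list mean. Esd (0.024) and Aldh3a1 (−0.013) lay so near 0 that leaving out single arrays turned them, to −0.062 and 0.028 without control replicate 2. The cause of these changes was not tested. The median difference of all probe sets was −0.021, −0.0098 after quantile normalization and −0.019 after median centring.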
